A study of Mus musculus with 20 samples.

Results

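NRF2, the protein of the Nfe2l2 gene, and 9 of its antioxidant target genes were followed in mouse liver: Nqo1, Gclc, Gclm, Txnrd1, Srxn1, Gsr, Hmox1, Osgin1 and Abcc4. The 10 genes were taken by name, as textbook members of this pathway, with earlier results of these data known. No rule on their values was used. All 10 were present among the 16115 genes of the count table, and all 10 stayed in the tests because the filter on low counts removed no gene.

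The livers came from male mice, collected after 18 months of treatment. The 5 groups were untreated wild type (wt), and mutants labelled d2-/- for Fancd2 that were untreated, given metformin (met), given oxymetholone (oxm) or given both (met+oxm, here called the combination). The Fancd2 protein acts in the repair of DNA crosslinks, and its loss causes a form of Fanconi anaemia. Metformin lowers blood glucose. Oxymetholone, an anabolic androgen, is given to raise blood counts in marrow failure. Every treated group carried the mutation, so no drug was measured in wild-type liver. The labels give no strain, dose, age at the start or Fancd2 allele beyond d2-/-, and the Fancd2 transcript was not analysed here. Of 20 labelled samples 18 libraries were analysed: 4 of wild type, 3 of untreated mutants, 3 of metformin, 5 of oxymetholone and 3 of the combination. Libraries are called by a replicate number that follows accession order and has no other meaning, and untreated mutant 1 and metformin 2 were not analysed here. The labels do not say that each library came from its own animal, so p-values measure the spread between these libraries.

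NRF2 is a transcription factor that KEAP1 normally holds in the cytoplasm and hands over for degradation. Oxidants and electrophiles modify KEAP1, and NRF2 then accumulates, pairs with a small MAF protein and binds antioxidant response elements near its target genes. In liver these targets build and recycle glutathione, reduce thioredoxin and peroxiredoxins, detoxify quinones and export conjugates from hepatocytes.

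Total counts were 20.2 to 32.7 M per library, and the least abundant gene of the set, Abcc4, was covered by 10 to 1017 counts per library. Levels are in CPM, counts relative to the size of the library after scaling by TMM factors. They were compared between libraries but not between genes, since they are not corrected for length. Metformin 3 and combination 3 resembled the other libraries least (median correlation with the others 0.926 and 0.916). Summed levels of 6 hepatocyte markers were 32600 to 83100 CPM, as for a liver sample. In bulk RNA, fewer cells of a type and less RNA per cell cannot be told apart.

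Promoter sequences are shown because all of these genes are described as NRF2 targets, and the letters show where an antioxidant response element core lies near a start site. The windows are RefSeq promoters of GRCm38.p6, 250 bases before to 50 after a start, whereas the counts were made on GRCm39. Of the 10 genes 7 had an entry, in 10 windows, and Gclc, Gsr and Hmox1 had none. The core TGACNNNGC, or GCNNNGTCA when read on the opposite strand, was present in 6 of the 10 windows, belonging to 5 genes, and in 12.4% of all 32851 windows of this length. Capitals mark a match in each stretch below, written 5′ to 3′ on the strand of the gene.
Nfe2l2, chr2:75704870-75704913, minus strand: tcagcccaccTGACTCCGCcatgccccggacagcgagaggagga
Gclm, chr3:122245398-122245456, plus strand: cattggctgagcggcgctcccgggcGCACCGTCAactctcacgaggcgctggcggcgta
Txnrd1, chr10:82859089-82859147, plus strand: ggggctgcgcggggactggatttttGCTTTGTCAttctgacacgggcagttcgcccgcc
Abcc4, first start, chr14:118706220-118706269, minus strand: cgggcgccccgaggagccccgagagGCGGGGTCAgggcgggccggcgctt
Abcc4, second start, chr14:118676932-118676979, minus strand: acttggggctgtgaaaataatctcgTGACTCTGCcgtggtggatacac
The first base of the match lay 240 bases before the start of Nfe2l2, 134 before that of Gclm and 92 before the middle of the 3 Txnrd1 starts. In Abcc4 it lay 25 bases before one start and 23 before the other. The Srxn1 match lay after the start, 28 bases into the transcript.

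A looser core, TGANNNNGC or GCNNNNTCA, which includes every match of the stricter one, was present in 8 of the 10 windows, in 6 genes, and in 41.3% of all windows. It added windows of Osgin1 and of the third Txnrd1 start, and further matches in windows of Abcc4 (first start) and Srxn1. Those of Srxn1, 3 in number, are shown because its level varied widely between libraries, and that of Osgin1 because it is the only match in that window.
Srxn1, chr2:152105341-152105512, plus strand: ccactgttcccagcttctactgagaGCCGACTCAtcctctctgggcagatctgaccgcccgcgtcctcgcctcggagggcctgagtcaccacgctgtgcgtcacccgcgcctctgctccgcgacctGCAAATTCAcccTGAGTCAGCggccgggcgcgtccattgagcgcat
Osgin1, chr8:119437023-119437081, plus strand: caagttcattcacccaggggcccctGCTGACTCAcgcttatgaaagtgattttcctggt
The Srxn1 matches began 158, 57 and 45 bases before the start, and the Osgin1 match 99 bases before it. The added matches not shown, GCGGTTTCA in Txnrd1 and GCGCTCTCA in Abcc4, began 84 and 108 bases before their starts. The Nqo1 window held neither core. A match of letters is a description of the sequence and does not show binding.

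Nfe2l2 encodes NRF2 itself, which is controlled mainly at the level of the protein. Its RNA was 53.1, 84.4, 53.4 and 46.8 CPM in wild type and 65.9, 69.4 and 78.7 CPM in untreated mutants. It was 69.6, 60.8 and 103 CPM with metformin, and 45.0, 129, 34.5, 44.9 and 67.6 CPM with oxymetholone. The combination gave 59.0, 58.8 and 82.6 CPM. Every pair of groups overlapped, and both the lowest and the highest library of the 18 were oxymetholone livers. The edgeR log2 differences were 0.26 ± 0.37 (SE) for untreated mutants against wild type and, against untreated mutants, 0.12 ± 0.39 with metformin, −0.15 ± 0.35 with oxymetholone and −0.09 ± 0.39 with the combination.

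Gclc and Gclm encode the catalytic and the modifier subunit of glutamate-cysteine ligase, the rate-limiting enzyme of glutathione synthesis. Gclc was 314, 205, 149 and 269 CPM in wild type, 233, 186 and 199 CPM in untreated mutants, and 259, 199 and 181 CPM with metformin. Oxymetholone gave 131, 271, 87.3, 61.9 and 418 CPM, and the combination 146, 218 and 294 CPM. The oxymetholone livers thus held both ends of the Gclc range, 6.75-fold apart, around a group mean of 194 ± 149 CPM (SD, n = 5) that lay near the 206 ± 24.2 CPM (n = 3) of untreated mutants. Gclm was 247 to 370 CPM in wild type (4 libraries), 227 to 392 CPM in untreated mutants (3), 223 to 388 CPM with metformin (3), 208 to 288 CPM with oxymetholone (5) and 188 to 375 CPM with the combination (3). Gclm ranged 2.08-fold from lowest to highest, the narrowest of the 10 genes over all libraries. Oxymetholone 5 held neither end of that range, and without this library Gsr (1.61-fold) and Txnrd1 (1.85-fold) had narrower ranges than Gclm. The Gclm difference with oxymetholone, −0.32 ± 0.26, did not pass (edgeR, adjusted p = 0.877), and it was −0.15 without untreated mutant 3 and −0.52 without untreated mutant 2. The 2 subunits did not follow each other closely: their Pearson correlation over the 18 libraries was 0.25.

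Gsr encodes glutathione reductase, which returns oxidised glutathione to its reduced form. It was 87.1, 69.2, 77.1 and 92.5 CPM in wild type, 70.6, 82.1 and 73.7 CPM in untreated mutants, 79.8, 86.9 and 64.6 CPM with metformin and 76.5, 72.9 and 90.7 CPM with the combination. With oxymetholone it was 57.4, 77.4, 66.7, 60.6 and 157 CPM. Oxymetholone 5 stood alone at the top, and the other 4 libraries of that group lay within or below the range of the untreated mutants. The oxymetholone log2 difference was 0.15 ± 0.28 with that library and −0.2 without it. Group membership accounted for 1.45% of the variance of Gsr, against a median of 19% over all genes.

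Txnrd1 encodes cytosolic thioredoxin reductase. Its level was 121, 121, 114 and 128 CPM in wild type and 96.4, 92.1 and 88.6 CPM in untreated mutants, so that every mutant library lay below every wild-type library. Metformin livers had 90.4, 112 and 123 CPM, oxymetholone livers 79.1, 103, 106, 146 and 172 CPM, and combination livers 112, 118 and 124 CPM. The combination libraries all lay above the untreated mutants and close to wild type. Neither difference passed: the log2 difference was −0.39 ± 0.23 for genotype (edgeR, adjusted p = 0.973) and 0.36 ± 0.24 for the combination (edgeR, adjusted p = 0.986). Both comparisons share the same untreated mutants. Over all genes, 6.32% had untreated mutants and wild type without overlap (3.82% in the lower direction), and 8.66% had combination and untreated mutants without overlap (4.71% in the higher direction). Txnrd1 had the smallest spread within groups among the 10 genes, an SD of 0.27 on the log2 scale against a median of 0.51 over all genes.

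Srxn1 encodes sulfiredoxin, which restores over-oxidised peroxiredoxins. Its level was 42.4, 67.0, 46.5 and 40.6 CPM in wild type and 67.3, 37.6 and 46.5 CPM in untreated mutants. Metformin livers had 38.8, 35.8 and 106 CPM, oxymetholone livers 47.1, 121, 42.5, 58.8 and 387 CPM, and combination livers 75.4, 50.5 and 207 CPM. All 4 libraries above 100 CPM were of treated mutants, and each treated group also had libraries within the untreated range. The oxymetholone log2 difference was 1.38 ± 0.69 (edgeR, adjusted p = 0.877) and dropped to 0.42 without oxymetholone 5. The combination difference was 1.14 ± 0.74 (edgeR, adjusted p = 0.977), and 0.32 without combination 3.

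Nqo1 encodes the quinone reductase that is the most used reporter of NRF2 activity. In wild type it was 5.48, 16.2, 12.6 and 9.29 CPM, and in untreated mutants 7.42, 9.95 and 12.5 CPM. With metformin it was 8.26, 4.75 and 29.2 CPM, with oxymetholone 6.29, 28.3, 4.14, 6.45 and 40.7 CPM, and with the combination 19.9, 10.6 and 46.4 CPM. The oxymetholone livers fell on both sides of the untreated mutants, with 2 above and 3 below all 3 of them. The log2 difference was 0.79 ± 0.74 with oxymetholone (0.18 without oxymetholone 5) and 1.37 ± 0.82 with the combination (0.62 without combination 3; edgeR, adjusted p = 0.877 and 0.973 with every library). With metformin it was 0.50 ± 0.81, and −0.62 without metformin 4.

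Hmox1 encodes haem oxygenase 1, which degrades haem and is also expressed in macrophages that clear red cells. It was 9.67, 19.8, 34.5 and 19.3 CPM in wild type, 24.4, 8.59 and 17.6 CPM in untreated mutants and 6.10, 9.44 and 18.0 CPM with metformin. Oxymetholone livers had 12.4, 22.6, 14.4, 40.1 and 24.1 CPM and combination livers 20.5, 10.7 and 36.7 CPM. All groups overlapped, and the high libraries were oxymetholone 4, combination 3 and wild type 3. Those same 3 libraries, with oxymetholone 5, had the 4 highest summed levels of 9 macrophage and Kupffer cell markers, at 474, 502, 415 and 432 CPM.

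Over the 18 libraries Hmox1 followed that macrophage sum with a Pearson correlation of 0.89 and a Spearman correlation of 0.87 (permutation p = 1e-05, the smallest that 100000 permutations give, and 2e-05). Adjusted over 90 pairings of 9 marker lists with the 10 genes, these were 0.0009 and 0.0018. The Pearson correlation was 0.89 within groups and 0.9 without metformin 1 and combination 2, the libraries farthest from the median of the marker sum. The macrophage sums were 142 to 415 CPM in wild-type livers and 156 to 276 CPM in untreated mutants. They were 82.7 to 241 CPM (metformin), 147 to 474 CPM (oxymetholone) and 66.3 to 502 CPM (combination), and none of the 9 markers was at 0 in any library. A second list, of neutrophil markers, gave 0.77 (Spearman 0.75, adjusted permutation p = 0.00427 and 0.00972). The part of macrophage content in the Hmox1 values was not tested.

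Osgin1 encodes an oxidative stress-induced growth inhibitor. Its level was 90.5, 85.9, 26.1 and 91.1 CPM in wild type and 203, 222 and 41.6 CPM in untreated mutants. Metformin livers had 57.0, 129 and 85.9 CPM, oxymetholone livers 37.5, 45.2, 172, 95.5 and 65.1 CPM, and combination livers 71.4, 86.6 and 90.5 CPM. Of the 3 untreated mutants 2 held the highest values of all 18 libraries, while untreated mutant 4 was below all wild-type libraries but one. The genotype log2 difference was 1.08 ± 0.56 (edgeR, adjusted p = 0.973), and it was 0.74 without untreated mutant 3 and 1.53 without untreated mutant 4. Against untreated mutants Osgin1 was lower in point estimate with every treatment, by log2 differences of −0.78 ± 0.61, −0.90 ± 0.53 and −0.91 ± 0.61 with metformin, oxymetholone and the combination. These 3 comparisons share the untreated mutants. Without untreated mutant 3 they were −0.43, −0.56 and −0.56, and without untreated mutant 4 −1.23, −1.35 and −1.36. Without oxymetholone 3 the oxymetholone value was −1.36.

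Abcc4 encodes MRP4, an exporter of the sinusoidal hepatocyte membrane that carries bile acids and conjugates into blood. It was 0.598, 1.71, 1.54 and 0.925 CPM in wild type and 1.39, 0.547 and 1.17 CPM in untreated mutants. With metformin it was 0.684, 3.96 and 2.46 CPM, with oxymetholone 1.60, 5.6, 1.48, 1.38 and 27.5 CPM, and with the combination 2.38, 1.58 and 7.24 CPM. Every combination library lay above every untreated mutant, although the nearest were close, and in the oxymetholone group 3 of 5 libraries were at or just above the top of the untreated range. The Abcc4 log2 difference with oxymetholone, 2.85 ± 1.01, was the largest of any of the 10 genes in the genotype comparison and the 3 treatment comparisons with untreated mutants (edgeR, adjusted p = 0.877). Without oxymetholone 5 it was 1.27. The combination difference was 1.84 ± 1.04 (edgeR, adjusted p = 0.959), and 0.92 without combination 3.

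**Figure D1:**
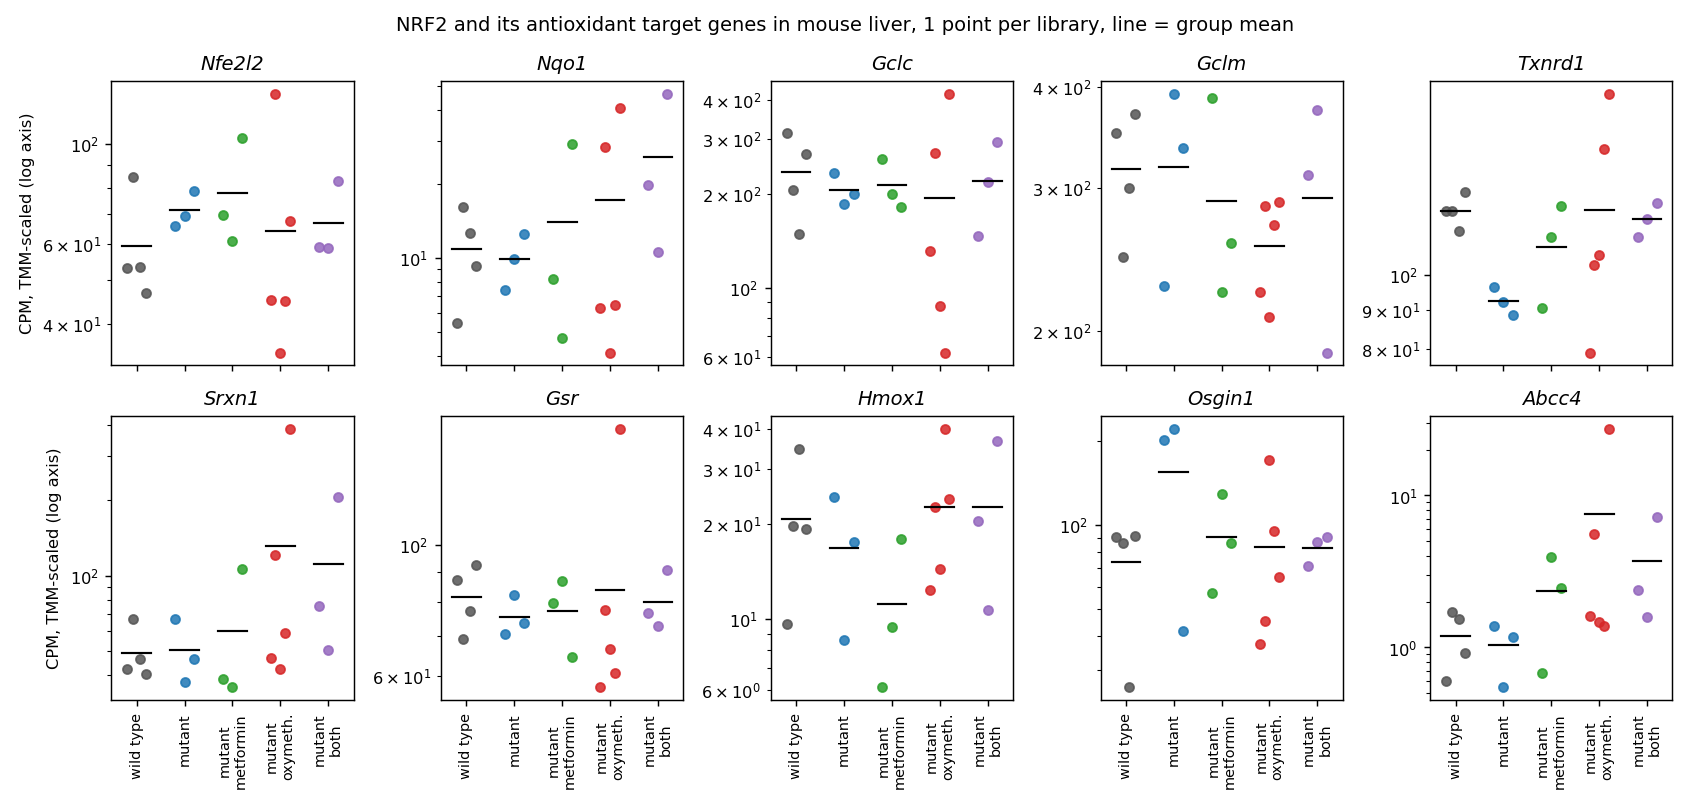
Level of each of the 10 genes in CPM (log axis, a separate scale for each gene) in the 18 libraries, by group; each point is 1 library and each line is the group mean. Srxn1 and Abcc4 have 1 oxymetholone library far above the rest, at 387 and 27.5 CPM, and the 3 Txnrd1 points of untreated mutants lie below all 4 of wild type.

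No gene of the set passed an adjusted p of 0.05 in any comparison. In untreated mutants against wild type 0 of the 10 passed, where 0% of all genes passed with edgeR. At an unadjusted p under 0.05 the count was 0 of 10 with edgeR, where 2.58% of all genes were below it. DESeq2 had Osgin1 below 0.05 unadjusted, as were 3.49% of all genes, and limma-voom Txnrd1 and Osgin1, as were 25.3% of all genes. Neither tool called any gene after adjustment. The median log2 difference of the set was −0.12, with 4 genes higher and 6 lower in point estimate. That of all genes was −0.02, with 47.8% higher.

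With metformin, 0 of 10 passed (0% of all genes). None was under an unadjusted 0.05 with edgeR, DESeq2 or limma-voom, where 5.67% of all genes were with edgeR. The largest point estimates were Abcc4, 1.19 ± 1.03 (0.61 without metformin 3), and Osgin1. The set's median was 0.08, with 7 genes higher, against 0.04 over all genes, with 53.9% higher. For each of the 10 genes the metformin and untreated mutant libraries overlapped, while 7.26% of all genes had no overlap.

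Oxymetholone gave 0 of 10 passing, where 7 genes of the table, 0.0434%, passed. At an unadjusted 0.05 there was 1 with edgeR (Abcc4), where 4.8% of all genes were, 2 with DESeq2 (Abcc4 and Srxn1), where 5.99% were, and 4 with limma-voom (those 2, Gclm and Txnrd1), where 20.5% were. The genes spread widely in point estimate, from −0.9 for Osgin1 to 2.85 for Abcc4, with a median of 0.27 against 0.03 over all genes. Of the 10, 6 were higher, where 52.9% of all genes were. For each of the 10 the groups overlapped, while 3.46% of all genes had no overlap. Without oxymetholone 5 the set's median was 0.01. In simulated counts for this comparison, the share of truly changed genes that the test recovered was 18% for 2-fold changes and 72% for 4-fold changes. It was 76% for 8-fold and 100% for 16-fold changes. Those counts were drawn from the kind of model that the test assumes, for genes picked at random, and no outlying library was added. Abcc4, Nqo1 and Srxn1 had within-group SDs of 1.28, 1.11 and 0.94 on the log2 scale, against a median of 0.51 over all genes. The shares therefore need not hold for these 3 genes.

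The combination gave 0 of 10 passing as well, where 3 genes of the table, 0.0186%, passed, and 0 at an unadjusted 0.05 with edgeR, DESeq2 or limma-voom (5.46% of all genes with edgeR). In point estimate 7 genes were higher and 3 lower, with a median of 0.22, against 50.4% higher and a median of 0 over all genes. Without combination 3 the set's median was 0.05. Of the 10 genes, Abcc4 and Txnrd1 had groups without overlap, both higher with the combination, as did 8.66% of all genes in either direction and 4.71% in that direction.

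**Figure D2:**
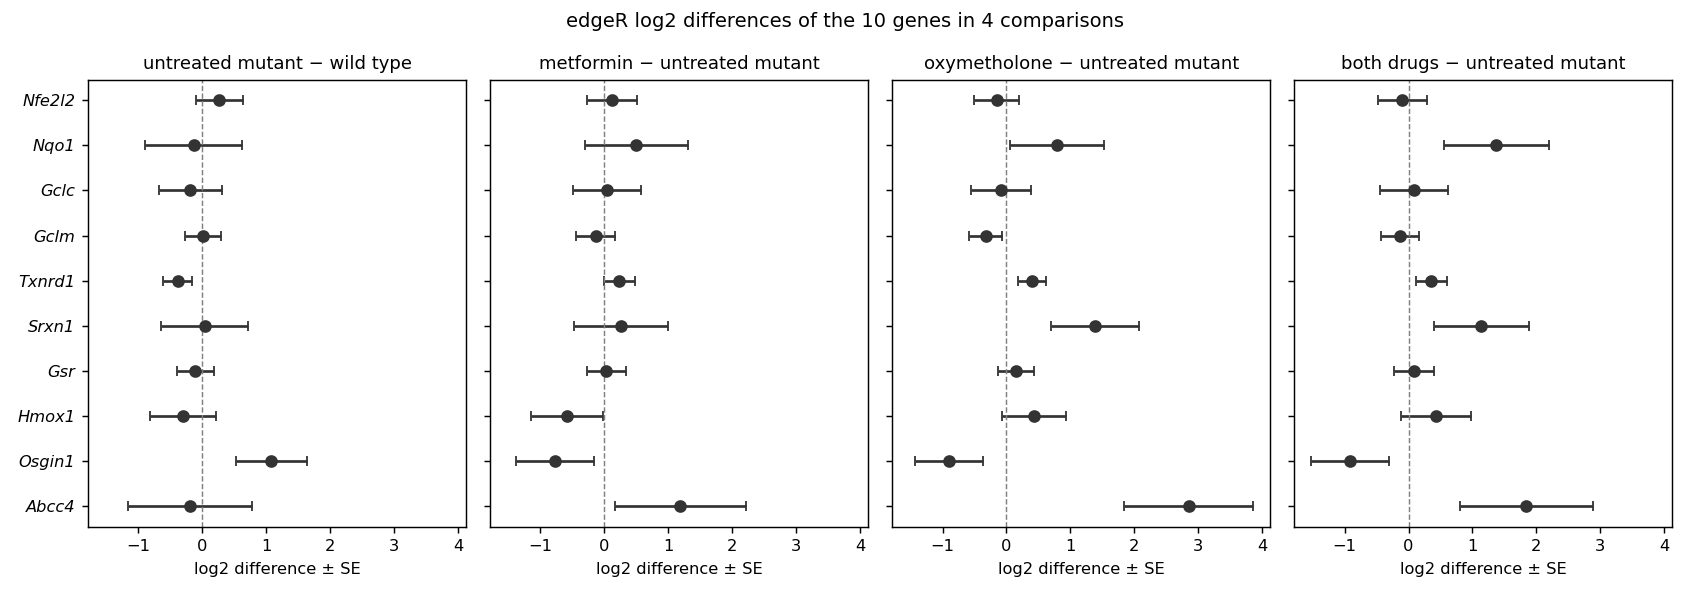
Log2 difference of each gene in edgeR's fit, with its standard error as a bar, for untreated mutants against wild type and for each treatment against untreated mutants. The widest bars are those of Abcc4, and the Abcc4 point with oxymetholone lies at 2.85.

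Treated mutants were also set against wild type. With oxymetholone 0 of the 10 genes passed, where 0.0993% of all genes did, and Abcc4 (2.65 ± 0.89, edgeR, adjusted p = 0.669) and Srxn1 (1.42 ± 0.62, adjusted p = 1) were under 0.05 unadjusted, as were 4.51% of all genes. Without oxymetholone 5 these differences were 1.07 and 0.45. The combination had 0 passing, where 0.0248% of all genes passed, and metformin 0 of 10, where 0% did. Txnrd1, whose lower level in untreated mutants did not pass, differed from wild type by 0.00 ± 0.20 with oxymetholone and −0.03 ± 0.22 with the combination. These comparisons share the wild-type libraries with each other and with the genotype comparison.

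Pooled over mutants with and without metformin, the oxymetholone difference was 1.75 ± 0.70 for Abcc4, 1.13 ± 0.50 for Srxn1 and 0.72 ± 0.38 for Hmox1 (edgeR, adjusted p = 0.818, 0.937 and 1). Thus 0 of 10 passed, where 0.124% of all genes did. Abcc4 and Srxn1 were under 0.05 unadjusted, as were 5.04% of all genes. Without oxymetholone 5 the Abcc4 and Srxn1 values were 0.96 and 0.65, and without combination 3 those of Srxn1 and Hmox1 were 0.72 and 0.45. Whether the drugs act differently together than apart was tested by the interaction, in which 0 of 10 genes and 0% of all genes passed, as in the pooled difference for metformin. The Abcc4 interaction was −2.19 ± 1.37 (edgeR, adjusted p = 0.863), and −0.61 without oxymetholone 5. DESeq2 and limma-voom called none of the 10 genes in these further comparisons either. At an unadjusted 0.05 the names with DESeq2 were those of edgeR. With limma-voom they were Abcc4 and Srxn1 for oxymetholone against wild type (8.28% of all genes), Nfe2l2 for metformin against wild type (10.4%) and Nfe2l2 alone for pooled oxymetholone (9.26%). In the test of any difference among the 5 groups 0 of 10 passed, where 0.18% of all genes did, and the smallest p of the set was that of Abcc4 (edgeR, adjusted p = 0.653). It alone was under 0.05 unadjusted, as were 5.8% of all genes, and with limma-voom 0 of 10 were, against 20.1% of all genes.

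The authors' deposited table of comparisons likewise calls none of the 10 genes. For oxymetholone the authors' deposited table has 47 genes, 0.292% of all, with an adjusted p under 0.05, and for the other 6 comparisons it has 0. In the authors' deposited table the untreated mutants differ from wild type by a log2 fold change of 1.35 for Osgin1 (adjusted p = 0.879) and −0.36 for Txnrd1 (adjusted p = 0.888). For oxymetholone against untreated mutants the authors' deposited table gives 1.72 for Abcc4 and 0.7 for Srxn1, and for the combination 0.16 and 0.42. The Abcc4 value for the combination in the authors' deposited table is thus far below the 1.84 of the fit to the counts. Of 40 values for the 10 genes in the 4 comparisons shared with that fit, 11 have the opposite sign in the authors' deposited table. Among these values of the authors' deposited table are Abcc4 with metformin, −0.31 against 1.19 in the fit, Gclc with the combination, −0.3 against 0.09, and Gclm with metformin, 0.22 against −0.14.

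The genes differed more between libraries than between groups. From the lowest to the highest library the fold was 50.4 for Abcc4, 11.2 for Nqo1, 10.8 for Srxn1 and 8.52 for Osgin1, and 2.08 to 2.73 for Gclm, Txnrd1 and Gsr. Without oxymetholone 5 it was 13.2 for Abcc4 and 5.78 for Srxn1. The share of variance between groups ran from 1.45% for Gsr to 31.4% for Abcc4. Over all genes its median was 19%, so a small share between groups is not particular to this set. The large ranges belonged to the exporter, the quinone reductase and sulfiredoxin, and the small ones to Gclm and the 2 reductases that recycle glutathione and thioredoxin.

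**Figure D3:**
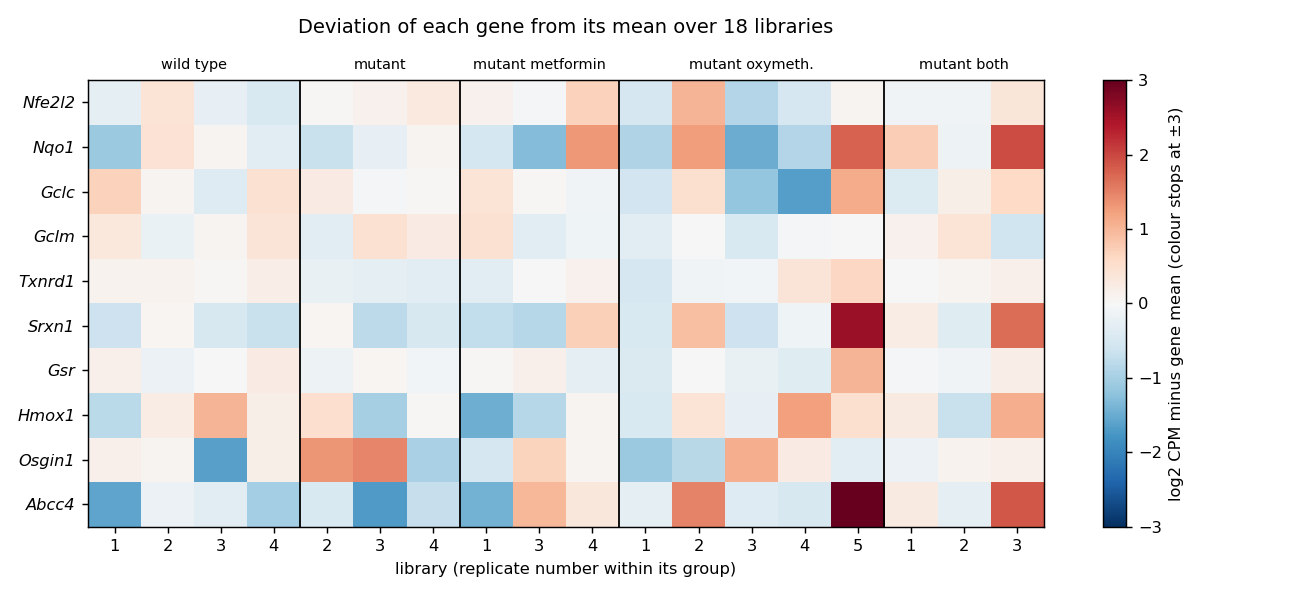
Deviation of each gene from its own mean over the 18 libraries (log2 CPM, colour stops at ±3), with libraries in columns by group. Red columns at oxymetholone 5 and combination 3 run through Nqo1, Srxn1 and Abcc4, while the Osgin1 row is highest in untreated mutants 2 and 3.

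Srxn1, Nqo1 and Abcc4 moved together across livers. The Pearson correlation of log2 CPM over 18 libraries was 0.87 for Srxn1 with Abcc4 (Spearman 0.7, permutation p = 5e-05 and 0.00168). It was 0.85 for Nqo1 with Srxn1 (Spearman 0.73, permutation p = 2e-05 and 0.00081). In both pairs the 2 farthest libraries on the first gene were oxymetholone 5 and combination 3, and without them the values were 0.63 and 0.78. Within groups they were 0.85 and 0.89. Nqo1 with Abcc4 gave 0.68 (Spearman 0.57, permutation p = 0.00177 and 0.0152), but 0.41 without those 2 libraries, so that this relation rests largely on them.

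Of 45 pairs 5 had an adjusted permutation p under 0.05 by Pearson correlation. The remaining 2 were Gclc with Gsr, 0.72 (Spearman 0.74, permutation p = 0.00147 and 0.00056; 0.76 without the 2 farthest libraries), and Nfe2l2 with Nqo1, 0.71 (Spearman 0.7, permutation p = 0.00086 and 0.00189; 0.62 without the 2 farthest). Adjusted over the 45 pairs, the Pearson p-values of the 5 were 0.0009 to 0.0159, and the Spearman p-values were 0.017 for each except 0.0976 for Nqo1 with Abcc4. By Spearman correlation 1 more pair passed, Srxn1 with Hmox1 (0.71, permutation p = 0.00133, adjusted 0.017), whose Pearson correlation was 0.54 (permutation p = 0.0192, adjusted 0.11; 0.51 without the 2 farthest libraries). The median over all pairs was 0.25, 12 pairs were above 0.5 and 14 were negative. Osgin1 followed none of the others: its highest correlation, with Txnrd1, was 0.08.

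Markers of other cells moved with some of these genes. Of the 90 pairings of a marker list with a gene, 7 had an adjusted permutation p under 0.05 by Pearson correlation, among them Hmox1 with the macrophage and neutrophil lists. By Spearman correlation alone, Abcc4 passed with the lymphocyte list (0.69, adjusted permutation p = 0.0306) and the stellate and fibroblast list (0.66, 0.0402). Srxn1 passed in that way with the macrophage list (0.66, 0.0419). The Pearson correlations were 0.56, 0.58 and 0.6 (adjusted permutation p = 0.0772, 0.0833 and 0.0681). Nqo1 and Nfe2l2 followed the summed level of 6 lymphocyte markers at 0.8 and 0.82 (Spearman 0.75 and 0.76, adjusted permutation p at most 0.00972 in each). Without metformin 4 and combination 3, the libraries farthest from the median of the sum, the values were 0.7 and 0.8. The lymphocyte sum was low, 1.34 to 7.58 CPM in wild type, 2.19 to 2.81 CPM in untreated mutants, 2.37 to 10.4 CPM with metformin, 0.714 to 7.45 CPM for oxymetholone and 1.63 to 11.2 CPM for the combination, and in 5 libraries at least 1 of the 6 markers was at 0.

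Srxn1, Abcc4 and Nqo1 followed 6 markers of proliferating cells at 0.7, 0.68 and 0.66 (Spearman 0.68, 0.76 and 0.57, adjusted permutation p 0.0241, 0.0303 and 0.0355 by Pearson and 0.0328, 0.00972 and 0.0899 by Spearman correlation). Without metformin 4 and combination 3 the values were 0.57, 0.67 and 0.45. The proliferation sum was 2.3 to 11.2 CPM in wild type and 2.93 to 5.22 CPM in untreated mutants, against 5 to 26.3 CPM in metformin, 3.14 to 19.9 CPM in oxymetholone and 3.76 to 51 CPM in combination livers. In 3 libraries 1 of these 6 markers was at 0. The part of lymphocyte, macrophage and stellate cell content and of cell division in the values of these genes was not tested.

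**Figure D4:**
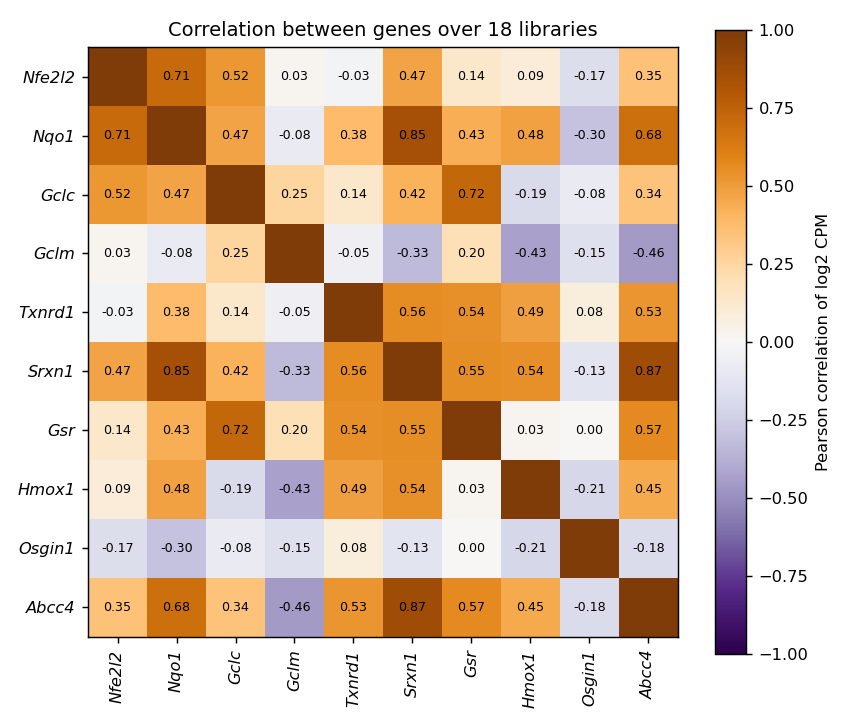
Pearson correlation of log2 CPM between each pair of the 10 genes over 18 libraries. Srxn1 with Abcc4 and Nqo1 with Srxn1 are the darkest cells, at 0.87 and 0.85, and the Osgin1 row stays at or below 0.08.

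Oxymetholone 5 held the highest level of 5 of the 10 genes, Gclc, Txnrd1, Srxn1, Gsr and Abcc4. The same liver held the maximum of 4.21% of all genes. The other maxima lay in combination 3 for Nqo1, oxymetholone 2 for Nfe2l2, oxymetholone 4 for Hmox1 and untreated mutant 3 for Gclm and Osgin1. Genes of further lists were then counted in the same way, after the maxima of this library had been seen. Oxymetholone 5 held the maximum of 9 of 28 further NRF2 targets (32.1%). It also held that of 8 of 11 targets in the glutathione transferase and related families (72.7%). For general antioxidant enzymes that are not usually counted as NRF2 targets the count was 3 of 18 (16.7%). It was 2 of 8 targets of the xenobiotic receptors CAR and PXR (25%) and 1 of 5 of the aryl hydrocarbon receptor (20%). Genes of the integrated stress response gave 1 of 10 (10%), and NRF2 regulators 1 of 12 (8.33%).

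**Figure D5:**
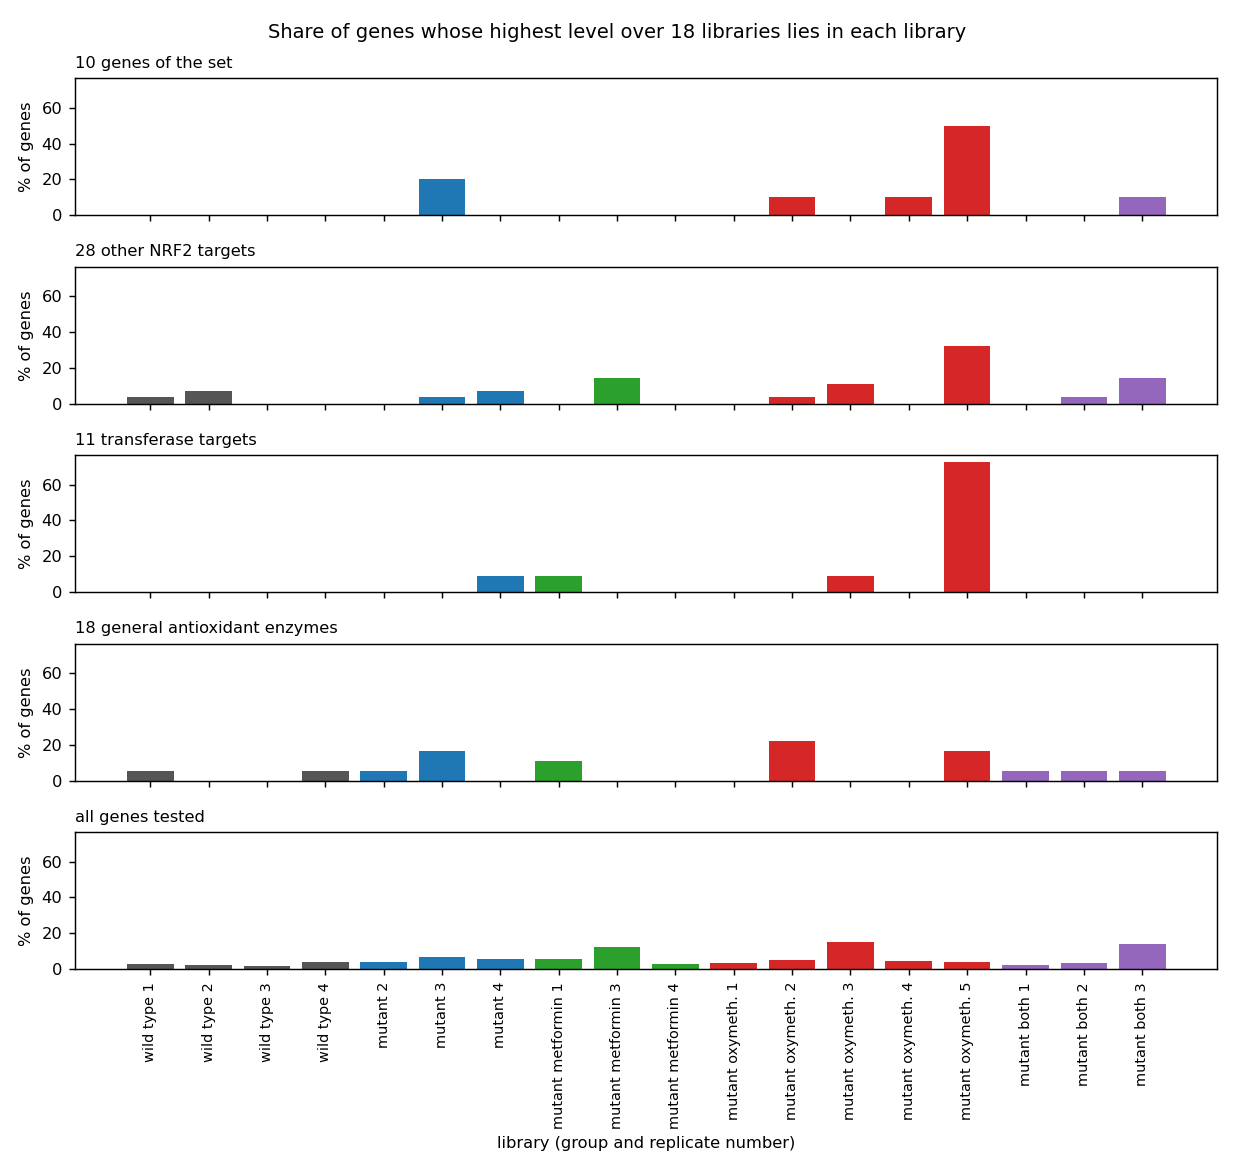
Share of the genes of 5 lists, in percent, whose highest level over 18 libraries lies in each library. Oxymetholone 5 has 50% of the 10 genes and 72.7% of the transferase targets, and 4.21% of all genes.

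Genes that regulate NRF2 showed no call. Of 12 regulators, including Keap1, Cul3, the small MAF genes and Sqstm1, 9 were higher and 3 lower in point estimate with oxymetholone (median 0.13), and 0 passed. Keap1, the NRF2 adaptor, differed by 0.10 ± 0.24. Maff, a small MAF partner of NRF2, was 1.81, 3.23 and 2.64 CPM in untreated mutants and 3.63, 6.41 and 8.23 CPM with metformin. The metformin libraries all lay above the untreated mutants, as for 3.94% of all genes. Maff was named for its small p in the test over all groups, which draws on the same values. Maff was 6.29, 10.1, 1.52, 1.66 and 8.02 CPM with oxymetholone and 2.68, 8.97 and 16.6 CPM with the combination, both overlapping the untreated mutants. Its differences were 1.26 ± 0.71, 1.11 ± 0.66 and 1.89 ± 0.72 (edgeR, adjusted p = 0.927, 0.877 and 0.851). Mafg and Gsk3b, which encode a second MAF partner and a kinase that favours NRF2 degradation, differed by −0.50 ± 0.29 and −0.65 ± 0.40 between untreated mutants and wild type.

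Among the 28 further targets 15 were higher in point estimate with metformin (median 0.18), 21 with oxymetholone (0.43) and 23 with the combination (0.24), and 0 passed in any of these. Cbr3, a carbonyl reductase, was 0.829 to 3.13 CPM in the 7 untreated livers of both genotypes. It was 0.789, 8.62 and 16.9 CPM with metformin, 1.48, 18.5, 0.667, 2.23 and 75.7 CPM with oxymetholone and 4.56, 2.55 and 35.2 CPM with the combination. Metformin 4, oxymetholone 2 and 5 and combination 3 were high, as for Nqo1, and metformin 3 was high for Cbr3 but low for Nqo1. Abcc2, the canalicular exporter of conjugates, was 132 ± 34.2 CPM in wild type (n = 4) and 61.3 ± 11.1 CPM in untreated mutants (n = 3), a log2 difference of −1.11 ± 0.33 (edgeR, adjusted p = 0.973). Gpx2, a glutathione peroxidase, was at 0 to 6.87 CPM, with its highest value in metformin 3.

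Transferase targets were lower in point estimate in untreated mutants for 10 of 11 genes (median −0.49), and higher with metformin for 10 of 11 (0.38), with oxymetholone for 9 of 11 (0.79) and with the combination for 11 of 11 (0.59). All 4 comparisons share the untreated mutants, and 0 genes passed in any of them. These genes belong to families of similar sequence, and how shared reads were counted is not given in the sources used here, so their levels are uncertain. Gstm3 was 83.9, 256, 71.8 and 132 CPM in wild type, 47.7, 54.1 and 36.2 CPM in untreated mutants, and 36.2, 109 and 393 CPM with metformin. It was 115, 345, 110, 90.5 and 1180 CPM with oxymetholone and 150, 99.2 and 660 CPM with the combination. The untreated mutants lay below all wild-type, oxymetholone and combination livers, and overlapped the metformin livers. Over all genes, 3.82% were lower without overlap in untreated mutants than in wild type. With oxymetholone 1.87% and with the combination 4.71% were higher without overlap. Gstm3 was named for its small p in the test over all groups, which draws on the same values. It is therefore not a gene picked without regard to its levels. The Gstm3 differences were −1.56 ± 0.96 for genotype and 3 ± 1 for oxymetholone (edgeR, adjusted p = 0.973 and 0.784), the latter 1.85 without oxymetholone 5. Gsta1, low in most livers, reached 37.9 and 128 CPM in oxymetholone 2 and 5, 60.4 CPM in combination 3 and 18.0 CPM in metformin 4. Gstp1, an abundant transferase of male mouse liver, was 726 ± 274 CPM (n = 3) in untreated mutants and 1390 ± 329 CPM (n = 5) with oxymetholone, a difference of 0.93 ± 0.34 (edgeR, adjusted p = 0.877).

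Of the 18 general antioxidant enzymes 3 were higher and 15 lower in point estimate with metformin (median −0.22), 6 and 12 with oxymetholone (−0.09), and 6 and 12 with the combination (−0.14). None passed with edgeR in any of these. Prdx4, a secretory-pathway peroxiredoxin, differed by −0.79 ± 0.33 and Sod2, the mitochondrial superoxide dismutase, by −0.43 ± 0.26 with oxymetholone, and neither passed (edgeR, adjusted p = 0.877). Prdx4 was −0.49 without untreated mutant 3, and Sod2 −0.11 without untreated mutant 2. Gpx3, a secreted glutathione peroxidase, differed by 0.98 ± 0.69.

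The genes whose pattern was most like the mean of the 10 standardised levels were Cbr3 (Pearson correlation 0.832), Gss (0.814), Gm12250 (0.807), Igtp (0.806) and Sqstm1 (0.803), among 10978 genes with a mean log2 CPM of at least 1 and over 18 libraries. Cbr3 is a known NRF2 target. Gss, a glutathione synthetase, was listed above with the general antioxidant enzymes that are not usually counted as NRF2 targets. Sqstm1, listed above as a regulator, encodes the autophagy receptor p62, and Igtp is an interferon-induced GTPase. By Spearman correlation the 5 leading genes were Anxa7, Abi1, Eif4e3, Ces2e and Gss, so that 1 of the 5, Gss, led by both measures.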

How the data were processed

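Liver RNA was sequenced; a column kit was used for extraction and a sequencing company made the libraries, per the labels' protocols. Alignment used GRCm39, per the submitters' processing notes. Which aligner, counter, annotation and strand setting were used is not given in the sources used here. In the deposited table each library has raw counts, that is whole numbers per gene, per the file headers. A further column per library, a CPM signal per the file headers, equals the deposited counts scaled by TMM factors computed here (largest relative difference 5e-15). Another column per library holds residuals, per the file headers, and was not used here. The authors deposited their own results for 7 comparisons as well: log2 fold changes, p-values and adjusted p-values, from an unnamed test.

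All other values were computed from the counts. The tool was edgeR 4.0.16 (R 4.3.3) with TMM scaling and filterByExpr, which removed 0 genes. Its robust quasi-likelihood model had 1 coefficient for each group, fitted over 18 libraries, and p-values were adjusted by Benjamini-Hochberg over 16115 genes at 0.05. The common dispersion was 0.181. Log2 CPM used a prior count of 2. SE is that of the log2 difference, computed as its absolute value divided by the square root of edgeR's F statistic. Total counts of 20.2 to 32.7 M give the depth. The test was tried on simulated data with the real means and library sizes, in which 5 of 138 calls were false for oxymetholone.

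The members and the gene and marker lists were chosen with earlier results of these data known. All 10 members are named. Of each further list, the genes called in any comparison and the 3 with the smallest p over all groups qualify for naming; Keap1 and the maxima of single libraries were chosen after values were seen. Correlations between members, tested by permuting libraries, were also added after the data were seen. Alternatives were DESeq2 1.42.0, limma-voom 3.58.1 with quality weights, DESeq2's size factors, other filters, a fit of the compared groups alone and leaving out libraries.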

Additional observations from a re-analysis of the deposited data

Results flagged for a closer look

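Of 20 sets of values from groups of 4 or 5 libraries, 4 held a library far from the others by Dixon's criterion on CPM. For normally distributed values the criterion is met in about 1 of 20 sets. CPM values are not on a log scale and need not be normal, so 4 of 20 is not read as an excess. The criterion was not applied to log2 CPM. In oxymetholone 5, Srxn1 was 387 CPM against 121 CPM in the nearest library of the group, Gsr 157 CPM against 77.4 and Abcc4 27.5 CPM against 5.6. These 3 genes share that library. In wild type 3, Osgin1 was 26.1 CPM against 85.9 CPM in the nearest library.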

How the results depend on the processing

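No paired analysis was possible because the labels carry no replicate numbers. No gene of the set was called under any alternative run. In edgeR fits of the compared groups alone, Nqo1 and Abcc4 were under an unadjusted 0.05 for the combination, as were 612 of 14656 genes. Against wild type the combination had Nqo1, Srxn1 and Abcc4 (1464 of 14811 genes), and the genotype comparison had Txnrd1 (993 of 14680). For pooled oxymetholone Abcc4 alone was left (639 of 15986). Of 487 results recomputed with other tests, scalings, filters or samples, 470 kept their direction and side of the threshold and 17 reversed; of 548 recomputed without 1 library, 512 kept them and 36 reversed. With limma-voom the log2 difference was −0.13 for Srxn1 in the genotype comparison, −0.13 for Gsr and 0.07 for Hmox1 with metformin, −0.01 for Tiparp with oxymetholone, and −0.13 for Gclc and −0.04 for Gsr with the combination. Without metformin 3 and combination 3, it was 0.02 for Gclm and −0.06 for Gsr with metformin, and −0.19 for Gclc, 0.09 for Gclm, −0.03 for Gsr and −0.12 for Hmox1 with the combination. Without oxymetholone 5 and combination 3, an alternative chosen after seeing the data, Gsr was −0.2 with oxymetholone, and with the combination Gclc, Gclm, Gsr and Hmox1 were −0.19, 0.09, −0.03 and −0.12. The cause of these reversals was not tested. Leaving out 1 library at a time, differences that reversed ranged for genotype from −0.22 to 0.23 (Srxn1), −0.35 to 0.12 (Nqo1), −0.17 to 0.2 (Gclm), −0.46 to 0.09 (Abcc4) and −0.67 to 0.05 (Hmox1). For metformin they ranged from −0.06 to 0.14 (Gsr), −0.12 to 0.15 (Gclc), −0.41 to 0.04 (Gclm), −0.13 to 0.27 (Nfe2l2), −0.62 to 0.91 (Nqo1) and −0.44 to 0.53 (Srxn1). For oxymetholone they ranged from −0.58 to 0.14 (Gclc), −0.21 to 0.44 (Tiparp), −0.57 to 0.01 (Nfe2l2) and −0.2 to 0.26 (Gsr), and for the combination from −0.18 to 0.31 (Gclc), −0.35 to 0.11 (Gclm), −0.01 to 0.15 (Gsr) and −0.11 to 0.79 (Hmox1). In the same way, the set's median for the combination ranged from 0.05, without combination 3, to 0.35, without combination 1. The set's median interaction was 0.01 and ranged from −0.22 to 0.42, the latter without oxymetholone 5. Counts of genes called over the whole table differed by tool: for metformin 0 with edgeR, 11 with DESeq2 and 0 with limma-voom, for oxymetholone 7, 78 and 14, and for the combination 3, 43 and 16. By Spearman correlation the highest likeness was 0.794. Groups held only 3 to 5 libraries, and the lowest library had 10 counts for Abcc4, 87 for Nqo1 and 116 for Hmox1. How far group size and depth each limit these tests was not compared.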

Other observations

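Among genes of the integrated stress response, a pathway whose factor ATF4 shares some targets with NRF2, 6 of 10 were higher in point estimate with metformin (median log2 difference 0.1), 9 of 10 with oxymetholone (0.49) and 7 of 10 with the combination (0.28), and none passed. Ddit3, which encodes the factor CHOP, was 3.29 ± 0.674 CPM (SD, n = 3) in untreated mutants, 6.13 ± 1.91 CPM (n = 5) with oxymetholone and 8.03 ± 1.27 CPM (n = 3) with the combination. Its log2 differences were 0.89 ± 0.29 and 1.28 ± 0.32 (SE, edgeR, adjusted p = 0.714 and 0.509). Every library of both treated groups lay above every untreated mutant, as for 1.87% of all genes with oxymetholone and 4.71% with the combination. Ddit3 was named for its small p in the test over all groups, which draws on the same values. Psat1, an enzyme of serine synthesis, was 2.42 ± 0.811, 3.7 ± 1.73 and 10.5 ± 11.1 CPM, and Nupr1, a stress-induced nuclear protein, 0.934 ± 0.297, 2.67 ± 1.11 and 4.1 ± 2.96 CPM in the same groups.

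Targets of the xenobiotic receptors CAR and PXR were lower in point estimate in untreated mutants than in wild type for 7 of 8 genes (median −0.83), and none passed. Wild type 4 held the highest level of 4 of these 8 genes: Cyp2b10 was 482 CPM there against 2.46 to 9.24 CPM in the other wild-type livers and 1.64 to 35.5 CPM in untreated mutants. Alas1, the rate-limiting enzyme of haem synthesis, was 150 ± 35.9 CPM (n = 4) in wild type, 54 ± 35 CPM (n = 3) in untreated mutants, 180 ± 210 CPM (n = 3) with metformin, 299 ± 281 CPM (n = 5) with oxymetholone and 383 ± 261 CPM (n = 3) with the combination. Its log2 differences from untreated mutants were 2.47 ± 0.88 and 2.83 ± 0.94 (edgeR, adjusted p = 0.877 and 0.798), the former 1.79 without oxymetholone 5. Cyp2c29, a P450 enzyme, had 495 ± 322 CPM in oxymetholone livers against 1200 ± 690 CPM in untreated ones, and Cyp2b10 had 30.2 ± 10 against 17.6 ± 17 CPM. Of 5 targets of the aryl hydrocarbon receptor 4 were higher in point estimate with metformin (median 0.6), 4 with oxymetholone (0.58) and 5 with the combination (0.59), and none passed. Cyp1a2 was 337 ± 78.6 CPM in untreated mutants and 622 ± 259, 547 ± 181 and 539 ± 421 CPM in these treated groups.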
